A study of Homo sapiens with 13 samples.

Results

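DEG and peonidin-3-O-glucoside (POG) were set directly against each other in hFOB 1.19 cells, an immortalised line of human fetal osteoblasts, through the RNA-seq counts of 2 libraries labelled T1_DEG and 3 labelled T2_POG. These 5 libraries were picked by their treatment label, and they are 5 of the 12 libraries with a column of counts and of the 13 labelled in the study. Another DEG library is labelled but was not analysed here. The study asked how plant polyphenols alter the transcriptome of osteoblasts deprived of fetal bovine serum (FBS). Its other groups were 2 negative controls (NC, no serum, DMSO vehicle), 3 libraries of resveratrol (RES) and 2 positive controls (PC, 10% FBS with vehicle). Each compound was given at 1 µg/mL. The methods describe POG and RES added to serum-starved cells and do not describe the DEG cells, and the labels do not spell DEG out. The treatment protocol names delphinidin-3-glucoside, peonidin-3-glucoside and resveratrol, so delphinidin-3-glucoside is the name that remains for DEG, without a label that ties them together. DEG and RES carry the prefix T1 and POG the prefix T2, neither of which is explained, so whatever the prefix marks cannot be told apart from the compound.

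Anthocyanins are the red to blue pigments of berries and are flavonoids that carry a sugar. Delphinidin-3-glucoside and peonidin-3-glucoside bear the same sugar at the same position and differ in the outer (B) ring, which in delphinidin carries hydroxyl groups only and in peonidin a methoxy group and a hydroxyl group. Osteoblasts build the collagen matrix of bone and also set the pace of its removal, because they release RANKL (TNFSF11), which drives osteoclast formation, and osteoprotegerin (TNFRSF11B), the decoy receptor that blocks it. In culture they also run programmes that respond to serum, cell shape, oxygen and interferon, and the genes of those programmes are described in turn. All cells came from a single line, and the labels do not say whether libraries of a group came from separate cultures, so the p-values measure only the spread between these libraries, which may be technical.

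Library totals ran from 38464619 to 51416358 reads over the 12 libraries, with 38464619 and 39036437 in DEG and 43628194 to 46033584 in POG. The osteoblast identity of the cells was checked on 9 markers, of which 7 reached 1 CPM (counts scaled to a common library total) in each group. COL1A1, which encodes the main chain of bone collagen, stood at 2501 CPM in DEG and 2560 CPM in POG (group means of plain CPM), whereas IBSP was at 0 and SP7 under 1 CPM in both groups. The summed osteoblast markers reached 4796 to 4800 CPM in DEG and 4800 to 4837 CPM in POG. Markers of adipocytes summed to at most 1.15 CPM and those of epithelium to at most 0.852 CPM in these 5 libraries, with LEP and FABP4, GRHL2, EMCN and TYROBP at 0 in both groups. Chondrocyte markers summed to 27.8 to 28.6 CPM, endothelial markers to 9.97 to 10.2 CPM, muscle markers to 2.89 to 4.39 CPM and blood markers to 2.68 to 3.32 CPM. Replicates of a group differed by more than counting noise in every pair, with a chi-square of 2.07 to 2.22 per gene, so that no library was a copy of another.

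The profiles of DEG and POG lay close together. Of 17092 genes tested, 11882 (69.5%) had a difference whose whole 95% confidence interval lay within 0.5 of 0 on the log2 scale, and 9161 (53.6%) stayed within 0.25. For 23 genes the whole interval lay beyond 0.5. The same count was 84 for DEG against NC, 111 for POG against NC, 145 for DEG against RES and 205 for POG against RES. Each interval holds for its gene alone and is not adjusted for the number of genes. These counts can therefore include genes that would not pass a test adjusted over all genes. The median absolute log2 difference between DEG and POG was 0.0693, against 0.103 and 0.105 for DEG and POG relative to NC and 0.122 and 0.123 relative to RES. These contrasts share libraries and the groups differ in size, so the values are set side by side without a test.

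In distances between single libraries, too, DEG and POG lay nearer to each other than either did to NC or RES. The root mean square difference of log2 CPM averaged 0.383 over the 6 pairs of a DEG and a POG library (0.376 to 0.389), which spans the distance between the DEG libraries themselves (0.389) and exceeds the distances within POG (0.356 to 0.365). Pairs of NC with DEG averaged 0.413, NC with POG 0.409, RES with DEG 0.427 and RES with POG 0.420. Relative to the mean distance within the DEG and POG groups, the DEG to POG distance was 1.04. When only genes averaging 1 CPM or more were kept, where counting noise is smaller, the same ratio was 1.11, against 1.36 and 1.41 for NC with DEG and with POG and 1.55 and 1.59 for RES with DEG and with POG. In that set the 6 DEG to POG pairs (0.170 to 0.175) all exceeded the distance within DEG (0.162) and those within POG (0.151 to 0.153). With 2 libraries against 3, an exact permutation of the labels cannot give a p below 0.1, so no test was placed on these distances.

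**Figure D1:**
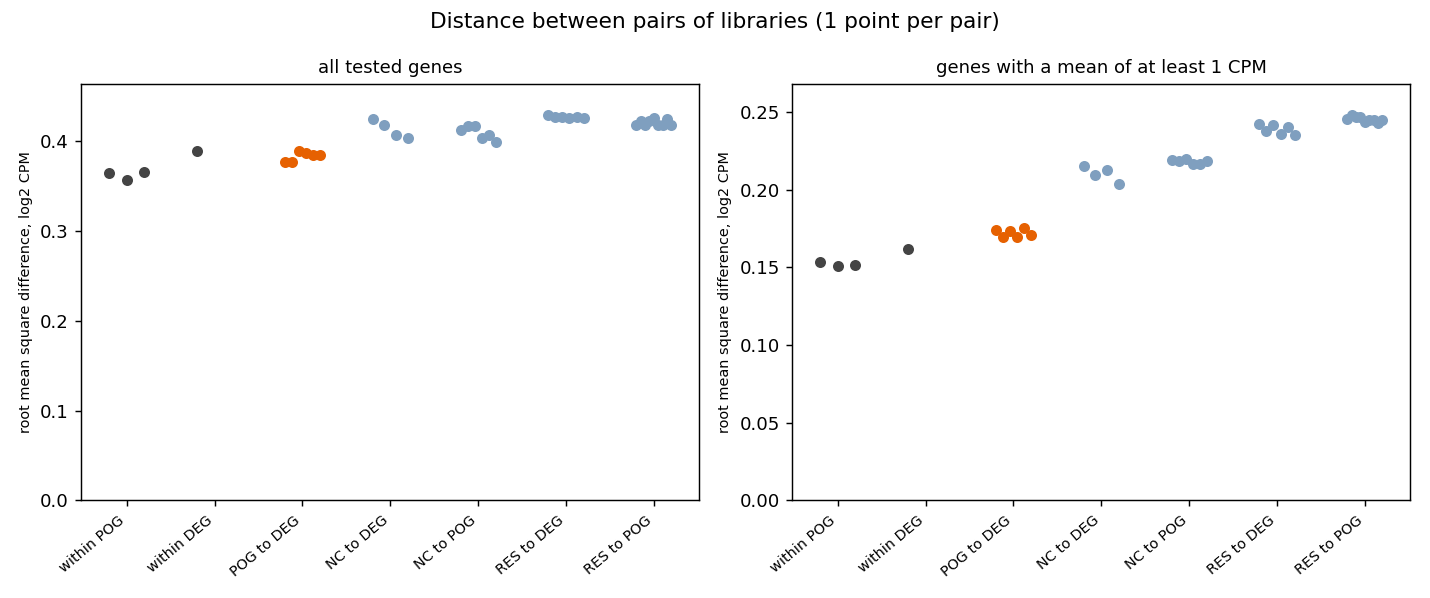
Root mean square difference of log2 CPM (vertical axis) for each pair of libraries, 1 point a pair, over all tested genes (left) and over genes that average 1 CPM or more (right). The POG to DEG pairs (orange) average 0.383 on the left, beside 0.389 within DEG, and lie below every pair of DEG or POG with NC or RES in both panels.

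How near the compounds could be shown to lie depended on the level of the gene. Of 7298 genes at 10 to 100 CPM, 7294 had an interval inside 0.5, and of 2587 genes over 100 CPM, 2586 did. At 1 to 10 CPM the share was 57.7% of 3470 genes. Under 1 CPM none of 3737 genes did, since the interval reached 1.05 to either side at the median, so for these genes neither likeness nor a modest difference was detectable at this depth. Over 100 CPM the median reach was 0.0702.

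A small set of genes did differ. The exact test of edgeR called 183 genes at a false discovery rate (FDR) under 0.05, which is 1.07% of the genes tested, with 98 (0.573%) higher and 85 (0.497%) lower in DEG than in POG. The libraries of DEG and POG did not overlap for any of the 183, but neither did they for 5445 of all genes tested (31.9%), and the 183 were chosen by the test. The differences were small, with a median absolute log2 difference of 0.208 and 164 of the 183 under 0.5. The difference exceeded 1 for 7 of the genes called, and 7 of them lay under a mean of 1 CPM. For comparison, the same test called 1647 genes (9.64%) for DEG against NC and 2492 (14.6%) for POG against NC, with unequal numbers of libraries. The spread in this test was estimated over all 12 libraries, and among genes averaging 1 CPM or more the PC libraries lay further apart (0.191) than the pairs within any other group (0.151 to 0.162). Estimated without PC, the common biological coefficient of variation fell from 3.20% to 2.16%, and 657 genes (3.84%) were called, 390 higher (2.28%) and 267 lower (1.56%), all 183 among them and 608 of them under 0.5. Leaving out DEG library 1 or 2 left 31 or 35 calls, 26 and 30 of them among the 183, so that 157 and 153 of the 183 were not called, and leaving out a POG library left 94 to 103. A fit without a DEG library leaves 1 library in that group. Calls lost in such fits, here and below, cannot be told apart from the effect of the smaller group. Counts of this contrast were also simulated, with changes placed only in genes averaging over 1 CPM. Among them, 70.1% of genes changed by 0.3 on the log2 scale were recovered, 82.1% of those changed by 0.5 and 97.0% of those changed by 1. Over all tested genes, 17 unchanged genes were called beside the 166 recovered, a larger share of the calls than the FDR threshold of 0.05. This was 1 draw, in which unchanged genes had the same mean in all groups, so the differences of PC and NC were absent. Recovery of changes in rarer genes was not simulated.

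**Figure D2:**
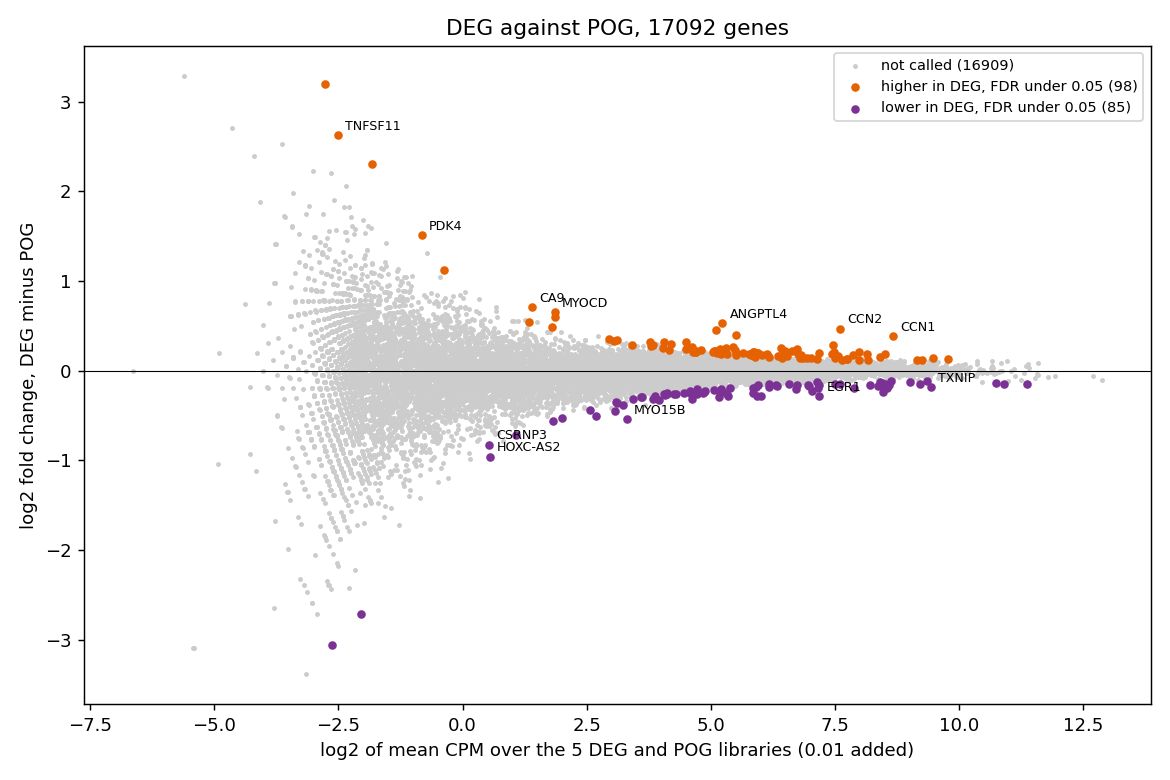
Log2 fold change of DEG minus POG (vertical axis) against the log2 of the mean CPM over the 5 libraries (horizontal axis) for 17092 genes, with the 98 genes called higher in orange and the 85 called lower in purple. Most called genes lie within 0.5 of 0, and the 7 beyond 1 sit at the low end of expression.

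Below, a level is a CPM scaled by the trimmed mean of M-values (TMM), a difference is the log2 fold change of DEG minus POG with its standard error (SE), and the FDR is that of the edgeR exact test over all 17092 genes. Means are given ± SD over the 2 DEG and the 3 POG libraries. Of the genes called, 18 (11 higher and 7 lower) stayed called in all 19 alternative fits run. Those higher were ANGPTL4, CCN2, TINAGL1, IGFBP6, CCN1, LTBP3, WNT5B, NTN4, THBS1, GRB10 and TM4SF1. Those lower were DCN, EGR1, LRRC15, MARK2, ODC1, ATG16L2 and TXNIP. LRRC15, NTN4, GRB10 and TM4SF1 are named here because of this count, after their values had been seen.

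CCN2, the gene of the smallest p, belongs to the genes that respond to serum response factor (SRF), which reads the state of actin, and to YAP with its TEAD partners, which reads cell shape and tension. Of 23 tested genes of this list, 5 were higher in DEG, none was lower, and 21 had a positive difference, with a median of 0.08 against 0.00011 over all genes. Over all genes, 1.07% were called and 8554 of 17092 had a positive difference. The share called rose with level, from 0.187% under 1 CPM to 1.30% at 10 to 100 CPM and 2.36% over 100 CPM. The counts of this and later lists are to be read beside these shares, and the level of the members was not matched. CCN2 (connective tissue growth factor) on chromosome 6 (hg38, 131948176 to 131951372) measured 236 and 228 CPM in DEG against 167, 167 and 169 CPM in POG. The DEG libraries lay well above the POG libraries and near the 221 and 226 CPM of NC. The difference was 0.47 (SE 0.030, FDR = 3.64e-38). CCN1, its matricellular relative, measured 475 and 473 CPM in DEG and 368, 354 and 368 CPM in POG, a difference of 0.38 (SE 0.027, FDR = 3.48e-28). Against NC, CCN2 differed by 0.05 under DEG (FDR = 0.479) and by −0.42 under POG (FDR = 3.61e-31), and CCN1 by 0.03 (FDR = 0.733) and −0.35 (FDR = 3.18e-25). POG thus held the lower level of either gene, and the DEG level did not pass the test against NC.

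THBS1, which encodes the matrix protein thrombospondin, was at 117 ± 1.29 CPM in DEG and 99.6 ± 1.90 CPM in POG (difference 0.24, FDR = 3.4e-05), and unlike CCN2 it was lower than in NC under either compound, by −0.71 for DEG and −0.94 for POG. TAGLN, an actin-binding protein of contractile cells, measured 43.8 and 43.2 CPM in DEG and 36.7, 36.6 and 36.6 CPM in POG (difference 0.25, FDR = 0.000299, or 0.0688 without DEG library 1). MYOCD, a coactivator of SRF, was not on the list and was much rarer, at 4.65 and 4.58 CPM in DEG against 3.11, 2.65 and 3.03 CPM in POG (difference 0.65, SE 0.14, FDR = 0.000559, or 0.0604 without DEG library 1). Among members that did not pass, ANKRD1 differed by 0.55 (FDR = 0.122), ACTA2 by −0.10 (FDR = 0.638) and ACTG2 by −1.25 (FDR = 0.309). With the spread estimated without PC, 8 members were higher and none lower. TAGLN and THBS1 overlap other annotated genes on either strand, and CCN2 and MYOCD overlap them on the opposite strand. The counting of such reads is not given in the sources used here.

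The stretch of promoter that holds the motif of TEAD factors is shown for CCN2, since its difference was the most significant of all. The 250 bases before each start in RefSeq (GRCh38.p14) were searched on both strands for GGAATG, the core bound by TEAD, which 11.9% of 27305 promoters hold. CCN2 held 3 matches and THBS1 held 1. The CCN2 stretch runs from 199 to 60 bases before the start on the minus strand, at chr6:131951432-131951571, with the matches in capitals.
CCN2: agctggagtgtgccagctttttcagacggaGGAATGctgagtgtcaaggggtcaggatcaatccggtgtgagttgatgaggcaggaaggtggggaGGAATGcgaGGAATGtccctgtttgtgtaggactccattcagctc
RefSeq promoters of CCN1 and TAGLN were not used here. A match describes the letters of this window and does not show that a factor was bound.

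**Figure D3:**
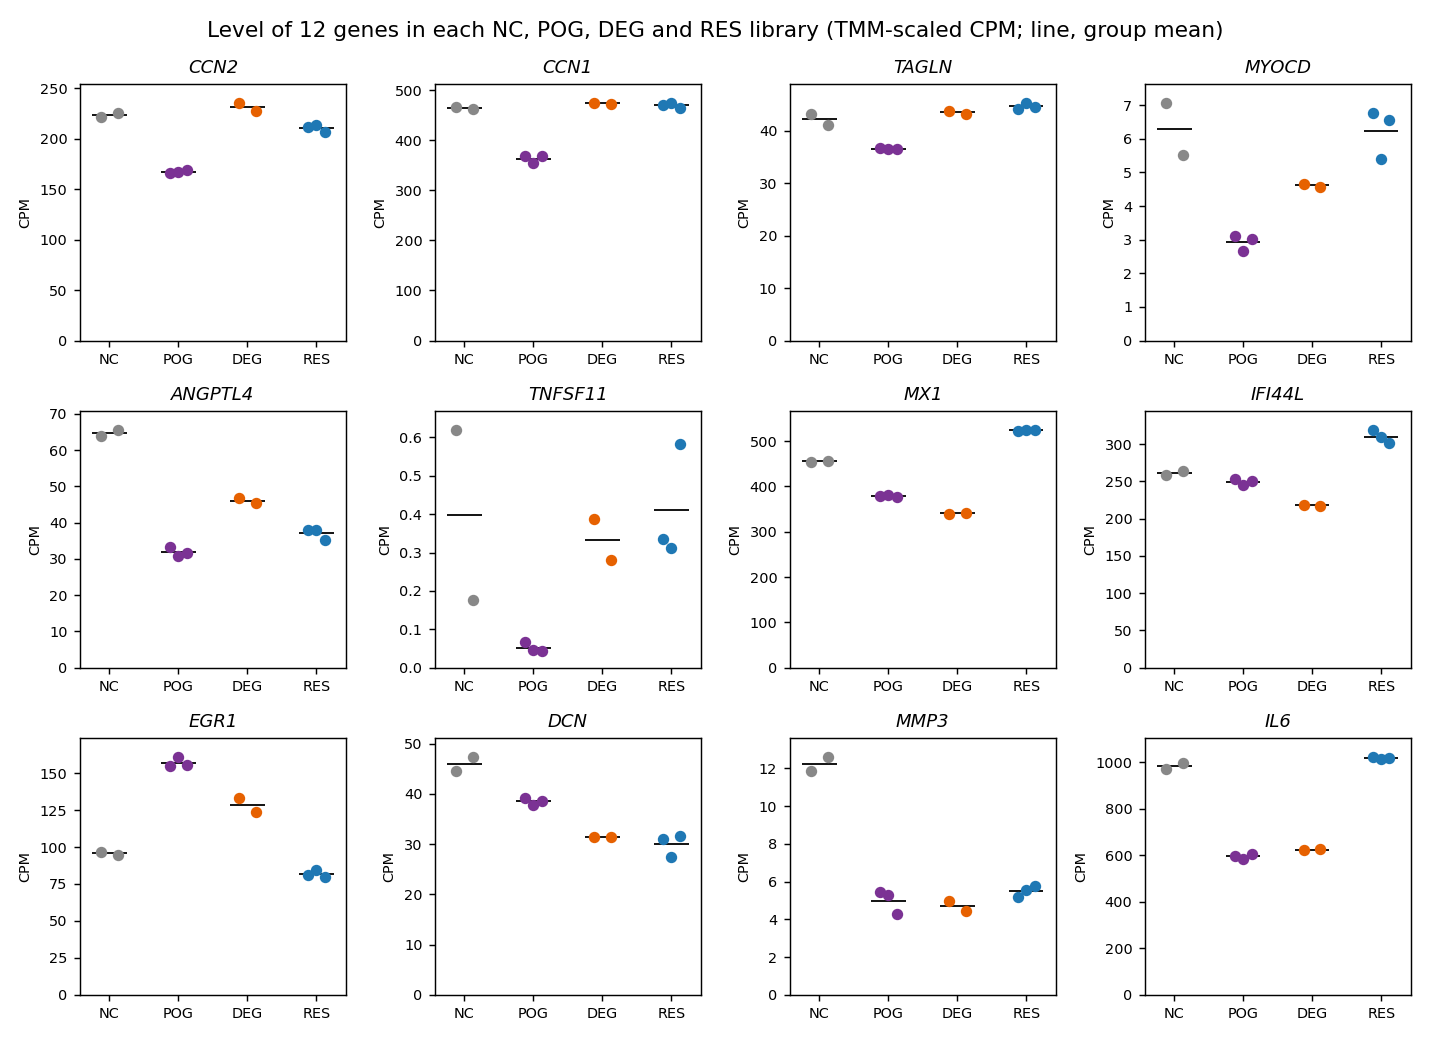
TMM-scaled CPM (vertical axis, from 0) of 12 genes in each NC, POG, DEG and RES library, 1 point a library with a line at the group mean. CCN2, CCN1 and TAGLN lie lower in POG than in the other groups, IFI44L and MX1 lie lowest in DEG, and MMP3 and IL6 are nearly level between DEG and POG.

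Genes of transforming growth factor beta (TGF-beta) signalling also leaned to DEG. Of 33 tested TGF-beta and BMP genes, 4 were higher and none lower, with 25 positive and a median of 0.04. TGFB2, a ligand of the pathway, measured 19.8 and 18.1 CPM in DEG against 15.4, 14.6 and 15.5 CPM in POG (difference 0.32, SE 0.066, FDR = 0.00119, or 0.257 without DEG library 1). SMAD3, the signal transducer, was at 122 ± 0.520 CPM and 111 ± 1.52 CPM (difference 0.14, FDR = 0.0356), and TGFBI, an induced matrix protein, at 593 ± 10.5 CPM and 546 ± 5.12 CPM (difference 0.12, FDR = 0.0309). SMAD3 and TGFBI lost the call when any DEG or POG library was left out, with an FDR of 0.0858 to 0.395 for SMAD3 and 0.111 to 0.529 for TGFBI. LTBP3, which holds latent TGF-beta in the matrix, was outside the list and measured 197 and 198 CPM in DEG against 162, 162 and 163 CPM in POG (difference 0.28, SE 0.032, FDR = 2.12e-11).

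TINAGL1, a matricellular protein of basement membranes, measured 39.9 and 41.8 CPM in DEG and 28.8, 30.9 and 29.9 CPM in POG (difference 0.45, SE 0.052, FDR = 2.64e-13). IGFBP6, which binds insulin-like growth factor 2, measured 51.8 and 55.3 CPM in DEG and 40.8, 41.3 and 39.5 CPM in POG (difference 0.40, FDR = 3.02e-11). NC stood at 39.0 and 40.9 CPM for TINAGL1 and at 40.3 and 44.2 CPM for IGFBP6, so both NC libraries lay above the POG libraries for TINAGL1 and below the DEG libraries for IGFBP6. WNT5B, the only member of 33 tested WNT genes to pass, was at 48.4 ± 0.0298 CPM in DEG and 40.4 ± 0.658 CPM in POG (difference 0.26, FDR = 0.000173). EFNA1, an ephrin ligand, was at 4.17 ± 0.172 CPM and 2.98 ± 0.167 CPM (difference 0.48, FDR = 0.0438), and its call was lost without any DEG or POG library, with an FDR of 0.075 to 0.443.

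Of 30 tested targets of hypoxia-inducible factor, 2 were higher in DEG and none lower (median 0.04, 22 positive). ANGPTL4, a secreted inhibitor of lipoprotein lipase, measured 46.7 and 45.5 CPM in DEG and 33.3, 30.7 and 31.6 CPM in POG (difference 0.53, SE 0.054, FDR = 9.61e-18). It lay below the 63.8 and 65.6 CPM of NC under either compound, by −0.49 under DEG and −1.02 under POG. CA9, a carbonic anhydrase of the cell surface, measured 3.67 and 3.18 CPM in DEG against 2.02, 1.95 and 2.30 CPM in POG (difference 0.71, SE 0.17, FDR = 0.00709). It was higher than in NC under DEG by 0.88 (FDR = 0.000226), while POG differed from NC by 0.17 (FDR = 0.665). Without DEG library 1 or 2 the FDR of CA9 was 0.316 and 0.0598. VEGFA, which drives vessel growth, differed by 0.04 (interval −0.02 to 0.10) and HIF1A itself by 0.04 (−0.01 to 0.10), and none of 18 tested glycolysis genes passed. ANGPTL4 was also the only one of 14 glucocorticoid-responsive genes to pass.

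Immediate early genes split in direction. Of 39 tested, CCN2, CCN1 and KLF4 were higher in DEG and EGR1 was lower (median 0.02). EGR1, a zinc finger factor induced by growth signals, measured 133 and 124 CPM in DEG against 155, 161 and 155 CPM in POG (difference −0.29, SE 0.037, FDR = 1.48e-09). Here the DEG libraries lay between POG and the 96.8 and 94.8 CPM of NC, at 0.42 above NC for DEG and 0.71 above NC for POG. KLF4, a growth-restraining factor, was at 66.3 ± 1.94 CPM in DEG and 57.7 ± 0.709 CPM in POG (difference 0.20, FDR = 0.00491, or 0.0604 and 0.333 without DEG library 1 or 2). EGR1 is a classic SRF target, and unlike the SRF genes above it was lower in DEG, so its promoter is shown. It held 2 matches to the CArG box, the motif bound by SRF, in a stretch from 135 to 44 bases before the start on the plus strand, at chr5:138465344-138465435, with the matches in capitals. The box occurs in 1.14% of all promoters and was found in neither CCN2 nor THBS1.
EGR1: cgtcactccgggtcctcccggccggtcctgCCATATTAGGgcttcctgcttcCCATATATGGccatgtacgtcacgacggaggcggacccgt

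Interferon-stimulated genes leaned the other way, with 7 of 39 lower in DEG and 2 higher (median −0.07, 28 negative). Over all genes tested, 0.497% were called lower and 0.573% higher. MX2, an antiviral GTPase, measured 35.4 and 36.5 CPM in DEG against 45.7, 43.8 and 42.1 CPM in POG (difference −0.29, SE 0.050, FDR = 3.44e-05, or 0.0526 without DEG library 1). IFI44L was at 218 ± 1.20 CPM and 250.0 ± 4.28 CPM (difference −0.20, FDR = 0.000524). MX1 was at 340.0 ± 2.08 CPM and 379 ± 2.72 CPM (difference −0.15, FDR = 0.00179). OAS2, a sensor of viral RNA, stood at 117 ± 0.870 CPM and 131 ± 0.599 CPM (difference −0.17, FDR = 0.00407). IFI35 and EPSTI1 were lower by −0.22 and −0.15. Without DEG library 1 or 2 the FDR was 0.0606 and 0.114 for IFI44L, 0.161 and 0.118 for MX1, 0.196 and 0.140 for OAS2, 0.307 and 0.0523 for IFI35, and 0.474 and 0.179 for EPSTI1.

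The exceptions in that list were RSAD2 (viperin), at 18.9 and 20.6 CPM in DEG and 16.8, 16.7 and 16.8 CPM in POG (difference 0.24, FDR = 0.025), and IFIT2, at 76.8 ± 1.22 CPM and 68.9 ± 3.21 CPM (difference 0.16, FDR = 0.0347). Both lost the call without either DEG library, at an FDR of 0.0604 to 0.581. All of the 9 had a negative difference from NC under either compound, at −0.74 under DEG and −0.97 under POG for RSAD2 and at −0.44 and −0.16 for MX2, so the compound with the lower level differed within the list. With the spread estimated without PC, 13 members were lower and 3 higher.

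The core of the interferon-stimulated response element, GAAANNGAAA, occurs on either strand in 3.07% of the 27305 RefSeq promoters. Of the 9 genes called, RSAD2, IFI44L, MX1, IFI35 and EPSTI1 had a promoter to search, and IFI44L held 2 matches and EPSTI1 held 1. The IFI44L stretch is shown because it carries the element in a repeat. The gene as annotated for its position begins at 78619902, so the stretch lies inside it and the RefSeq start used lies further downstream. The stretch runs from 194 to 34 bases before that RefSeq start on the plus strand, at chr1:78620254-78620414, with the matches in capitals.
IFI44L: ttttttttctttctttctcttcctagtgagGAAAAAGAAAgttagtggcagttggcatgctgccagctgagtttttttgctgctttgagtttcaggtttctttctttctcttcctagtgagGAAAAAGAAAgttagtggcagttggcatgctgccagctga

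Of the 13 protein-coding genes of the mitochondrial genome, 3 were called lower in DEG, none higher, and 12 had a negative difference (median −0.10). MT-CYB, a subunit of respiratory complex III, measured 1811 and 1774 CPM in DEG against 1979, 1992 and 2007 CPM in POG (difference −0.15, SE 0.026, FDR = 0.00341). MT-ND3 of complex I (−0.19, FDR = 0.00564) and MT-CO3 of complex IV (−0.15, FDR = 0.0139) were the others. None stayed called without DEG library 1 or 2, with an FDR of 0.0854 to 0.451, whereas 10 of the 13 were lower with the spread estimated without PC. The share of reads on all genes with a mitochondrial (MT-) symbol, a set not restricted to these 13, was 3.11% and 3.03% in DEG. It was 3.26% to 3.31% in POG and 3.26% and 3.41% in NC. None of 39 nuclear genes of the respiratory chain passed, with a median of 0.01. The part of this share in the other results was not tested.

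Among 20 tested signals from osteoblasts to osteoclasts, 2 were higher in DEG and 1 lower (median −0.01). TNFSF11 (RANKL) had 15 and 11 reads in the DEG libraries and 3, 2 and 2 reads in the POG libraries, or 0.387 and 0.280 CPM against 0.0666, 0.0454 and 0.0430 CPM. The groups did not overlap, but the counts were few, and the difference of 2.62 had an interval of 1.26 to 4.12 (FDR = 0.00933). NC libraries held 24 and 7 reads, so DEG differed from NC by −0.25 (FDR = 0.907) and POG by −2.87 (FDR = 0.000115). The FDR of the direct difference was 0.317 and 0.134 without DEG library 1 or 2, 0.0624 and 0.0598 without POG library 2 or 3, and 0.0692 in the quasi-likelihood test. TNFRSF11B (osteoprotegerin), at 27.9 ± 1.39 CPM in DEG and 25.6 ± 0.254 CPM in POG, did not pass (difference 0.12, interval 0.02 to 0.23, FDR = 0.356). SEMA3A, a semaphorin that restrains osteoclasts, was at 37.4 ± 2.21 CPM and 32.7 ± 1.75 CPM (difference 0.19, FDR = 0.0499), a call lost in the quasi-likelihood test (FDR = 0.112), in DESeq2 (0.0928) and without either DEG library (0.0854 and 0.697).

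Chemokines split. CCL2, which attracts monocytes, measured 178 and 185 CPM in DEG against 201 ± 1.65 CPM in POG (difference −0.15, FDR = 0.0119, or 0.450 and 0.1004 without DEG library 1 or 2). CXCL8, which attracts neutrophils, was at 757 ± 4.06 CPM and 686 ± 8.90 CPM (difference 0.14, FDR = 0.00568, or 0.219 and 0.165 without DEG library 1 or 2). They were the only calls among 24 tested cytokines and chemokines (median −0.03) and among 21 tested NF-kappaB targets (median 0.01). IL6, an inflammatory cytokine that also promotes osteoclasts, measured 621 and 628 CPM in DEG and 597, 583 and 605 CPM in POG, with a difference of 0.07 (interval 0.01 to 0.13, FDR = 0.435). It was lower than in NC under either compound, by −0.66 for DEG and −0.73 for POG.

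The genes of apoptosis, osteoblast differentiation and bone resorption that the study discusses were nearly level between the compounds. Of 28 tested, TNFSF11 alone was called, and 22 had an interval inside 0.5 (median −0.02). RUNX2, the master regulator of osteoblasts, measured 47.6 and 48.5 CPM in DEG against 51.3, 48.2 and 48.1 CPM in POG (difference −0.03, interval −0.14 to 0.07). The largest differences among the other members were HIF3A at −0.38 (interval −1.46 to 0.70), TP63 at −0.36 (−1.92 to 1.18), MMP1 at −0.25 (−0.52 to 0.02), CASP6 at −0.19 (−0.39 to 0.01) and CASP9 at −0.16 (−0.33 to 0.02), none of which passed. For TP63, HIF3A, DLX5, IL18 and MMP1 the interval passed 0.5, so likeness was not shown. BCL2L1, which encodes the survival protein Bcl-XL, differed by 0.14 (FDR = 0.0701, or 0.00528 with the spread estimated without PC). None of 36 tested genes of the BCL2 and caspase families passed (median 0.01).

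Among 28 tested osteoblast transcription factors and matrix genes, DCN alone passed. DCN, the collagen-binding proteoglycan decorin, measured 31.4 and 31.3 CPM in DEG against 39.2, 37.7 and 38.6 CPM in POG (difference −0.30, SE 0.056, FDR = 0.000146). It lay below the 44.6 and 47.3 CPM of NC under both compounds, by −0.55 for DEG and −0.26 for POG. None of 26 tested collagens passed, and COL1A1 differed by −0.03 (interval −0.07 to 0.02). TIMP3, an inhibitor of metalloproteinases, was the only call among 33 MMP, ADAMTS and TIMP genes, at 54.4 ± 0.576 CPM in DEG and 47.5 ± 0.265 CPM in POG (difference 0.20, FDR = 0.00352, or 0.0905 and 0.190 without DEG library 1 or 2).

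TXNIP, ODC1, MARK2 and ATG16L2 were, with EGR1, the 5 genes of the smallest p among those lower in DEG. TXNIP, which binds thioredoxin and limits glucose uptake, measured 626 and 642 CPM in DEG against 727, 714 and 724 CPM in POG (difference −0.19, SE 0.026, FDR = 2.23e-06). It was higher than in NC under either compound, by 0.35 and 0.53. ODC1, the first enzyme of polyamine synthesis, measured 327 and 316 CPM in DEG and 379, 380.0 and 379 CPM in POG (difference −0.24, SE 0.031, FDR = 3.18e-08), with 355 and 359 CPM in NC between them. MARK2, a kinase of cell polarity, was at 56.8 ± 2.00 CPM and 69.1 ± 1.27 CPM (difference −0.28, FDR = 1.98e-07), and ATG16L2, a relative of the autophagy protein ATG16L1, at 118 ± 1.27 CPM and 139 ± 0.296 CPM (difference −0.23, FDR = 1.29e-06).

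The larger falls lay at lower levels. MYO15B, an unconventional myosin gene, measured 7.31 and 8.22 CPM in DEG against 11.1, 11.5 and 11.2 CPM in POG (difference −0.54, FDR = 0.000172, or 0.103 without DEG library 1). RTN4RL2, a receptor related to the Nogo receptor, was at 5.18 ± 0.237 CPM and 7.33 ± 0.227 CPM (difference −0.50, FDR = 0.00504, or 0.0905 and 0.2496 without DEG library 1 or 2). HOXC-AS2, an antisense transcript of the HOXC cluster, measured 0.801 and 1.04 CPM in DEG and 1.89, 1.70 and 1.81 CPM in POG (difference −0.96, FDR = 0.0182, or 0.443 and 0.140 without DEG library 1 or 2), and its reads cannot be told apart from those of HOXC6 and HOXC9 on the opposite strand if strand was not counted. It was the only call among 9 tested HOXC genes. CSRNP3 (−0.82), ZNF837 (−0.72), CCDC113 (−0.56), ZFP69B (−0.53), GPR162 (−0.45), ERVK13-1 (−0.44) and ST3GAL5 (−0.38), which makes the ganglioside GM3, were also lower, at an FDR of 0.00611 to 0.0412. All of these lost the call without DEG library 1, with an FDR of 0.172 to 0.743, and all except ST3GAL5 lost it without DEG library 2. Their counterparts among the rises were PRR22 (1.12), LINC02762 (0.60) and the histone gene H2BC5 (0.55), at an FDR of 0.0244, 0.0401 and 0.0471. Without DEG library 1 these stood at 0.270, 0.731 and 0.383.

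The largest folds rested on few reads. Apart from TNFSF11 and PRR22, they are named after their values had been seen. PAGE2B, which has near-identical relatives that can share its reads and is therefore uncertain, had 13 and 10 reads in DEG and 3, 0 and 1 in POG (difference 3.20, interval 1.53 to 5.12). LRRC74B had 20 and 21 reads in DEG and 6, 7 and 1 in POG (difference 2.31, interval 0.97 to 3.72). PDK4, a kinase that inhibits pyruvate dehydrogenase, had 34 and 37 reads in DEG and 13, 16 and 14 in POG (difference 1.51, interval 0.78 to 2.26, FDR = 0.00497), with 24 and 42 reads in NC. On the other side, ENTPD4-DT had 1 and 1 reads in DEG and 8, 8 and 16 in POG (−3.06, interval −5.02 to −1.38), and SPNS3 had 1 and 3 against 13, 18 and 17 (−2.72, interval −4.33 to −1.25). Without DEG library 1 or 2 the FDR was 0.0940 and 0.182 for PDK4 and at least 0.101 for the other 4.

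**Figure D4:**
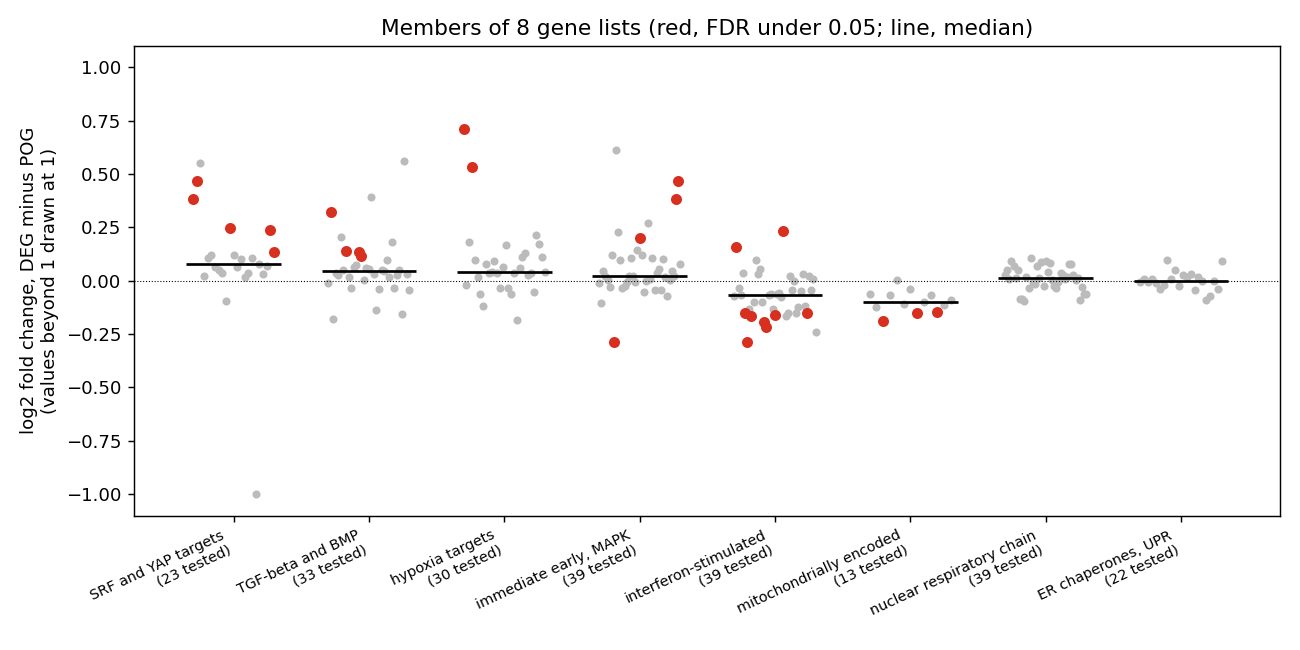
Log2 fold change of DEG minus POG (vertical axis) of each tested member of 8 gene lists, with members under an FDR of 0.05 in red and the list median as a line, and values beyond 1 drawn at 1. SRF and YAP targets lie mostly above 0 (median 0.08), interferon-stimulated and mitochondrially encoded genes mostly below it (−0.07 and −0.10), and nuclear respiratory chain and ER chaperone genes around it.

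The remaining lists held few or no calls. Of 32 ATF4 and amino acid genes, GDF15 (0.18), SLC38A2 (0.16) and SLC7A11 (0.25) were higher and PSAT1 (−0.26) lower, with a median of −0.0041. GDF15, a stress-induced cytokine, was also the only call among 25 p53 targets. TXNRD1 (0.13) and SLC7A11, the cystine transporter, were the 2 calls among 25 NRF2 targets (median 0.04). Single members were higher among 28 lysosome and autophagy genes (NPC1, 0.12), 13 snoRNA hosts (SNHG5, 0.17) and 9 metallothionein and zinc genes (SLC39A10, 0.19), and 1 was lower among 24 cholesterol genes (HMGCS1, −0.12). Of these calls, none stayed without DEG library 1 or 2, at an FDR of 0.0604 to 0.50. No member passed among 14 fatty acid, 9 AHR target, 25 HOXA, HOXB and HOXD, 22 ER chaperone, 20 heat shock, 30 mitosis, 34 replication, 30 ribosome biogenesis, 36 proteasome, 13 iron, 17 circadian, 20 NOTCH and 25 splicing genes, with medians from −0.04 to 0.04. Together with the 4 lists without a call named earlier, 17 lists of 414 tested genes held none in the edgeR exact test, while 44 of these genes had an unadjusted p under 0.05, 2 were called by DESeq2, 0 by the quasi-likelihood test and 27 with the spread estimated without PC. AHR is a receptor that binds many flavonoids, and 7 of the 9 had an interval inside 0.5.

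Finally, the genes that moved most in 1 direction against NC under both compounds, among those that averaged 1 CPM or more in NC or in both compounds, were set side by side. They were chosen for that pattern, and both contrasts use the same NC libraries, so their likeness is a description. MMP3 (stromelysin), which degrades matrix, measured 4.96 and 4.45 CPM in DEG, 5.44, 5.28 and 4.26 CPM in POG and 11.9 and 12.6 CPM in NC, and the libraries of the compounds overlapped. It differed from NC by −1.38 and −1.29, and between the compounds by −0.08 (interval −0.33 to 0.16). LGR6, a receptor of R-spondins, differed from NC by −1.36 and −1.51, INHBE (an inhibin subunit) by −1.18 and −1.15, CH25H (an enzyme of oxysterol synthesis) by −1.09 and −1.13, C2CD4A by −1.91 and −1.58 and the lncRNA ENSG00000260604 by −1.46 and −1.38. Between the compounds these 5 differed by −0.33 to 0.15. Among the rises, ACER2, an alkaline ceramidase, was at 3.95 and 3.49 CPM in DEG and 3.64, 3.29 and 3.92 CPM in POG against 2.27 and 2.24 CPM in NC. ARC, NKPD1, SRSF12, GREB1 and APRG1 rose against NC by 0.71 to 0.87 under DEG and by 0.70 to 0.96 under POG, and between the compounds they differed by −0.15 to 0.17. Of the 12 genes, MMP3, ACER2, SRSF12, GREB1 and APRG1 had an interval inside 0.5, and the others were too rare to show it.

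**Figure D5:**
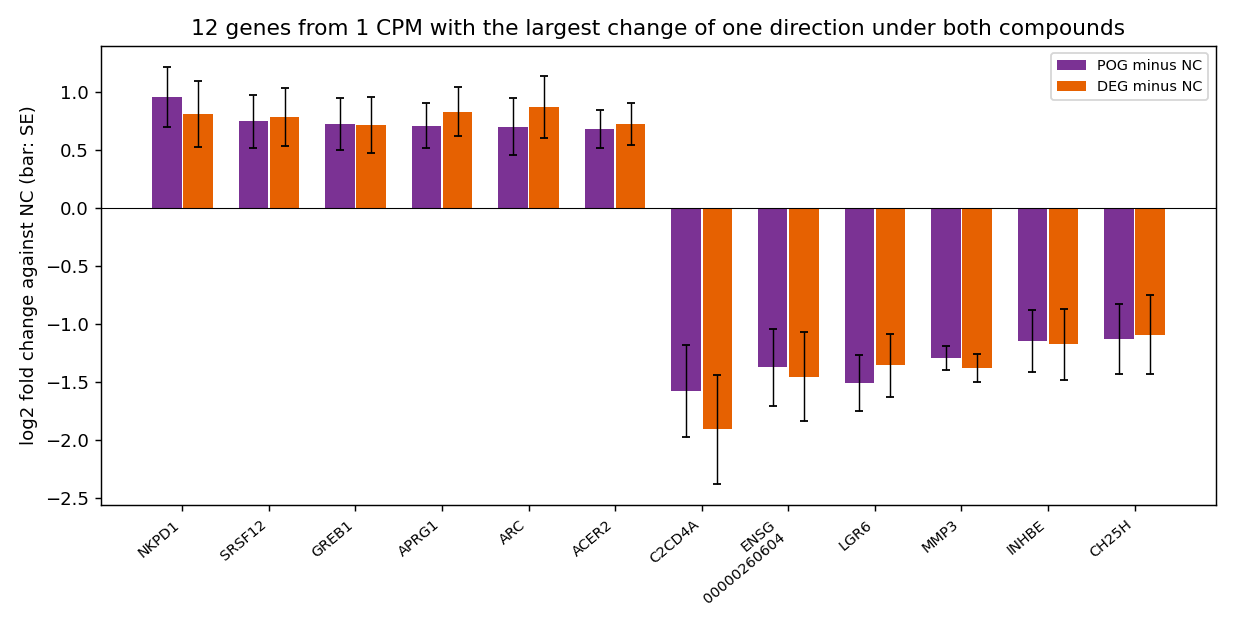
Log2 fold change against NC (vertical axis, bars from 0, error bars SE) under POG (purple) and DEG (orange) for the 12 genes with the largest change of 1 direction under both compounds among those that averaged 1 CPM or more in NC or in both compounds. Each pair of bars has overlapping errors, and MMP3 falls by 1.29 under POG and by 1.38 under DEG.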

How the data were processed

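Poly-A RNA of hFOB 1.19 cells was sequenced by the authors from stranded paired-end libraries, and per the labels and methods the reads were aligned to hg38 with STAR (the methods also name BWA MEM) and counted per gene with featureCounts. Tool versions, the strand setting and the treatment of multi-mapped reads are not given in the sources used here. The deposited unit is raw counts per gene (43836 genes, 43214 with a symbol). Groups came from the treatment labels of 12 libraries. The members and gene lists were chosen with earlier results of these data known. Counts were analysed in R 4.3.3 with edgeR 4.0.16 after TMM scaling and its filter by group, which kept 17092 genes with 99.967% of reads. Groups were compared with its exact test, which the study's methods name, on dispersions over all 12 libraries, which they do not specify, with Benjamini-Hochberg adjustment over all genes tested (FDR under 0.05). SE and 95% intervals came from the edgeR quasi-likelihood fit. Library totals were 38464619 to 51416358 reads.

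Genes were named by rule. These were the 10 largest rises and falls among called genes that reached a mean of 1 CPM under DEG or POG and whose libraries did not overlap, the 5 smallest p in each direction, at most 4 called members of each list, at most 6 genes the study discusses, and the 6 largest rises and falls shared by both compounds against NC. Other names are marked as chosen after their values were seen. A few items that the counts include are not reported here by name. No set test was run, and gene lists are described by counts and medians. Alternatives were the quasi-likelihood test, DESeq2 1.42.0, other scalings, filters, dispersions and thresholds, a GC and length correction, and leaving out each DEG and POG library. Dispersions without PC together with leaving out a library were added after seeing the data. The scripts were tested on simulated data. Figures were drawn with Python 3.11.15 and matplotlib 3.10.9.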

Additional observations from a re-analysis of the deposited data

How the results depend on the processing

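The call rests on few libraries and on the estimate of the spread, and genes under 1 CPM are too shallow to place. Genes called between DEG and POG numbered 183 (98 higher in DEG, 85 lower). The quasi-likelihood test gave 103 (54 and 49), no filter on low counts 117 (54 and 63), an FDR of 0.01 gave 78 (41 and 37), an absolute log2 fold change of at least 0.5 gave 19 (10 and 9) and of at least 1 gave 7 (5 and 2). Dispersions from DEG and POG alone gave 827 (472 and 355), dispersions without the positive controls 657 (390 and 267), and the GC content and length correction 375 (223 and 152). Leaving out 1 library gave 31 to 103 genes, 17 to 52 higher and 14 to 53 lower. Leaving out 1 library together with dispersions without the positive controls was a pair of choices made after seeing the data. It gave 454, 450 and 437 genes (264, 274 and 260 higher, 190, 176 and 177 lower) without POG library 1, 2 or 3. Without a DEG library this pair of choices leaves 1 library in that group, so its counts are not given, although these fits are among the 19 alternatives. The plain fits without a DEG library leave 1 library as well. Their lower counts cannot be told apart from the effect of the smaller group. The cause of these shifts was not tested, apart from the fewer samples or stricter thresholds that some alternatives impose. DESeq2 (142), its size factors in edgeR (186), plain totals (177) and a mean of at least 1 CPM (199) stayed within 1.5 times of the main count. Plain totals gave 81 higher and 96 lower. The count of genes with an interval inside the margin stayed between 11169 and 11955 under the alternatives of scaling, filter, dispersion and libraries. The ratio of the DEG to POG distance to distances within groups was 1.11 with a mean of at least 1 CPM against 1.04, and 1.03 to 1.04 otherwise. No named gene reversed direction among those called. No paired analysis was possible because the labels carry no replicate numbers, and the library numbers used here only follow the order of the samples.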

Other observations

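Of the genes that stayed called in all 19 alternatives, 4 were not described above and are named after their values had been seen. LRRC15, a membrane protein of mesenchymal cells and activated fibroblasts, measured 54.0 and 54.2 CPM in DEG against 69.6, 62.5 and 65.2 CPM in POG, a difference of −0.28 (SE 0.046, FDR = 5.12e-06 in the edgeR exact test). It was higher than in NC under POG by 0.20 (FDR = 0.000727), and under DEG it differed from NC by −0.09 (FDR = 0.381). TM4SF1, a tetraspanin-like surface protein, measured 275 and 273 CPM in DEG and 235, 238 and 240.0 CPM in POG, a difference of 0.21 (FDR = 1.93e-05). Against NC it was higher under DEG by 0.15 (FDR = 0.00468), and POG differed by −0.06 (FDR = 0.339).

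NTN4, a netrin of basement membranes, was at 94.2 ± 0.748 CPM in DEG, 79.3 ± 0.588 CPM in POG and 104 ± 1.66 CPM in NC, with a DEG to POG difference of 0.25 (FDR = 1.46e-07). GRB10, an adaptor that dampens insulin and IGF signalling, was at 108 ± 0.201 CPM in DEG, 92.8 ± 2.03 CPM in POG and 124 ± 1.68 CPM in NC, with a difference of 0.22 (FDR = 3.24e-06). Both were lower than in NC under either compound, by −0.14 and −0.39 for NTN4 and by −0.19 and −0.42 for GRB10, with the lower level under POG.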
